A study of Mus musculus with 12 samples.

Results

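The nuclear-encoded subunits of respiratory complexes III and IV and of ATP synthase, together with cytochrome c, were described in heart and cerebrum of mice. Members were the rows of the deposited array table whose single gene symbol starts with Uqcr or Atp5, is a Cox4 to Cox8 subunit symbol, or is Cycs or Cyc1. The rule found 70 rows of 43 genes, among 21218 rows with 1 gene symbol and 35556 rows in all. Of the genes, 26 had 1 row and 17 had several, up to 6 rows for Atp5l. A row is a transcript cluster, the unit for which the array gives 1 value. Rows of 1 gene are not independent measurements, and a row can share probes with near-identical copies of the gene elsewhere in the genome, which was not tested. A further 5 rows that name one of these genes beside another symbol were left out.

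Complex III passes electrons from ubiquinol to cytochrome c, complex IV passes them from cytochrome c to oxygen, and both pump protons across the inner mitochondrial membrane. ATP synthase lets the protons flow back through its c ring, which turns the central rotor inside the F1 head, where ATP is made. Heart muscle is densely packed with mitochondria, and mammals use muscle-type paralogues of several complex IV subunits in heart in place of the forms found in most other tissues.

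The study asked whether phosphatidylserine (PS), a membrane phospholipid, affects gene expression in mice that model familial dysautonomia (FD), a hereditary neuropathy in which IKBKAP is mis-spliced. RNA was hybridised to 12 whole-transcript arrays, with 3 arrays in each of 4 groups: heart of PS mice, heart of MCT mice, cerebrum of PS mice and cerebrum of MCT mice. Dosing by gavage began at 4 months of age and lasted 3 months, with PS at 200 mg/kg in 100 µl on alternate days, and MCT mice received the vehicle, medium-chain triglycerides, in the same volume. All arrays carry 1 genotype label, humanized knock-in IKBKAP FDloxP/+ on C57BL/6J. By that label alone, every comparison is between FD model mice. The labels are at odds on 2 points. The series design counts 6 FD mice whereas the growth protocol counts 3 FD and 3 wild-type mice. The labels do not settle whether any group held wild-type mice. The protocols state the dose per kg whereas the source names state it per day. The labels call the arrays of a group biological replicates, and the 3 arrays a group limit the precision of every value.

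All values are log2 intensities as deposited, so that a difference of 1 is a doubling. Array medians ran from 4.89 to 5. Across single-symbol rows, arrays of 1 group correlated at 0.983 to 0.997, arrays of 1 tissue under different treatment at 0.974 to 0.994 and arrays of different tissues at 0.774 to 0.799. The tissue labels went with their defining markers: the ventricular light chain Myl2 was 11.84 to 12.05 in heart and 3.78 to 4.15 in cerebrum, and the synaptic gene Snap25 was 3.97 to 5.08 in heart and 12.3 to 12.44 in cerebrum. The treatment groups were not balanced for sex-linked transcripts. Xist, the RNA that coats the silenced X chromosome in female cells, was 9.09, 9.13 and 8.92 in PS hearts, against 3.4, 4.03 and 3.66 in MCT hearts. In cerebrum it was 9.55, 3.32 and 9.86 under PS, against 3.77, 3.34 and 3.62 under MCT. In heart, a sex difference and the treatment therefore cannot be told apart, whereas in cerebrum PS array 2 had the low Xist level of the MCT arrays. The Y-linked gene Eif2s3y was 3.49 in PS heart 2 and 7.25 in PS cerebrum 2, so by both genes these arrays of 1 number did not match as samples of 1 mouse. The labels do not say whether other hearts and cerebra of 1 number came from 1 mouse.

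Promoter sequences are shown for 6 members on which the results below turn: Cox7a1 and Cox8b, muscle-type complex IV subunits, Cox6a1 and Cox8a, their ubiquitous family members that were lower in heart than in cerebrum, Uqcr11, the gene with the largest fall in cerebrum of PS mice, and Atp5k, with the lowest p in heart. They come from RefSeq (GRCm38.p6) and run 5′ to 3′ on the gene's strand, from 250 bases before the start of the gene to 50 bases after it. Capitals mark matches to 4 motifs, each searched on both strands: the NRF1 motif (GCGCA, any base, then GCGC), the ETS motif CCGGAAG that GABP binds, the estrogen-related receptor motif AAGGTCA and the TATA motif TATAAA. Cox7a1 lies at chr7:30183921-30184220 (plus strand), Cox8b at chr7:140900397-140900696 (minus), Cox6a1 at chr5:115348909-115349208 (minus), Cox8a at chr19:7217567-7217866 (minus), Uqcr11 at chr10:80406772-80407071 (minus) and Atp5k at chr5:108434350-108434649 (minus).
Cox7a1: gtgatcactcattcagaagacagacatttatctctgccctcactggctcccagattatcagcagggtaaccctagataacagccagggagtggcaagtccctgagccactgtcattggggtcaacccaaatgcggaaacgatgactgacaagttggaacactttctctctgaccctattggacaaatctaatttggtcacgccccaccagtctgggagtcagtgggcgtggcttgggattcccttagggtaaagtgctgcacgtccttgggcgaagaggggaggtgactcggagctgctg
Cox8b: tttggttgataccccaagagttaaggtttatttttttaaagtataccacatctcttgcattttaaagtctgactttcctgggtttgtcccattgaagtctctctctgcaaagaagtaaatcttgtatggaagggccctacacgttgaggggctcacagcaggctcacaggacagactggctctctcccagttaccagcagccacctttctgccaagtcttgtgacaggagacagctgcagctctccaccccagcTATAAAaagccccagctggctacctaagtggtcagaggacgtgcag
Cox6a1: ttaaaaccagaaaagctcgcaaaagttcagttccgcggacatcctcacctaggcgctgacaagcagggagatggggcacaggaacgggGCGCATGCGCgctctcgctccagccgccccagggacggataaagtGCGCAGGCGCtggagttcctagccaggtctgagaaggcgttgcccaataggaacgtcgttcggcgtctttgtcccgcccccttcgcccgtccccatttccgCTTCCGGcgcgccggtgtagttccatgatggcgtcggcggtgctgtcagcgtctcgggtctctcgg
Cox8a: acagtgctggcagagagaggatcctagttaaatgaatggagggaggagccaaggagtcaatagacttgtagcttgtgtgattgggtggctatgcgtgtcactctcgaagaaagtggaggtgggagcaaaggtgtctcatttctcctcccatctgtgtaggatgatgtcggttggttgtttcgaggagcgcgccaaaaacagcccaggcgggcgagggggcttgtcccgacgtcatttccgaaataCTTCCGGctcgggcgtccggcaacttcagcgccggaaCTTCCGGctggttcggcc
Uqcr11: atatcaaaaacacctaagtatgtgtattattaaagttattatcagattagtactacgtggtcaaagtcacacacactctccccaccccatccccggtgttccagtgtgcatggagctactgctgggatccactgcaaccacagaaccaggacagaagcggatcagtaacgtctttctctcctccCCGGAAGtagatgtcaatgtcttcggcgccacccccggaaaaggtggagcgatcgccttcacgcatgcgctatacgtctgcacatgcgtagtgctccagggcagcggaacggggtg
Atp5k: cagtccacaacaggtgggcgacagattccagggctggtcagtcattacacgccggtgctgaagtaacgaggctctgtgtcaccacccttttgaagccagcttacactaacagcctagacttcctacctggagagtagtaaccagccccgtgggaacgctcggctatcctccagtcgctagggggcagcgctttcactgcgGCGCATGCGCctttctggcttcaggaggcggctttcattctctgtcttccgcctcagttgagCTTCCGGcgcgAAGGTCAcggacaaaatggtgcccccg

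The ubiquitous Cox6a1 held NRF1 and ETS matches and Cox8a held ETS matches near the start. The muscle-type Cox8b held a TATA match, at bases 4 to 9 after the start, and Cox7a1 held none of the 4 motifs. These genes were picked from the results, and no promoter was found for the muscle-type Cox6a2. No contrast between muscle-type and ubiquitous promoters is drawn. Promoters were found for 33 of the 43 genes, 36 sequences in all. The NRF1 motif matched in 8 of them (22.2%), against 4.6% of the 32851 promoters of all genes. These were promoters of Atp5c1, Atp5g2, Atp5g3, Atp5h, Atp5k, Atp5o, Cox6a1 and Uqcrc1. The ETS motif matched in 11 (30.6%, against 8.86%), the estrogen-related receptor motif in 4 (11.1%, against 4.72%) and the TATA motif in 4 (11.1%, against 13.6%). Atp5k held NRF1, ETS and estrogen-related receptor matches together. A match describes the letters of the window and is not a site of binding.

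Respiratory subunits were higher in heart than in cerebrum with few exceptions. In MCT mice, 67 rows of 40 genes passed the filter on low values (a mean of at least 5.23 over the 6 arrays). Of these, 64 rows of 38 genes were higher in heart and 3 rows were lower, at an adjusted p under 0.05 (limma, Benjamini-Hochberg adjustment over all 12734 rows tested). Over all rows tested, 35.2% were higher and 40.3% lower in heart. The median difference of the members was 1.38 on the log2 scale, against −0.07 for all rows. In PS mice, 63 of 66 rows were higher and 3 lower, against 38.3% higher and 37.6% lower of 12732 rows, with medians of 1.44 for the members and 0.02 for all rows. The counts of higher rows include Cox8b in both treatments, with cerebrum means of 4.36 under PS and 5.1 under MCT. Under MCT they also include 1 row of Cycs (4.7). These rows passed the filter through heart alone, so no support is drawn from their calls. The plot of heart minus cerebrum shows how far 3 complex IV rows stood apart from the others.

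**Figure D1:**
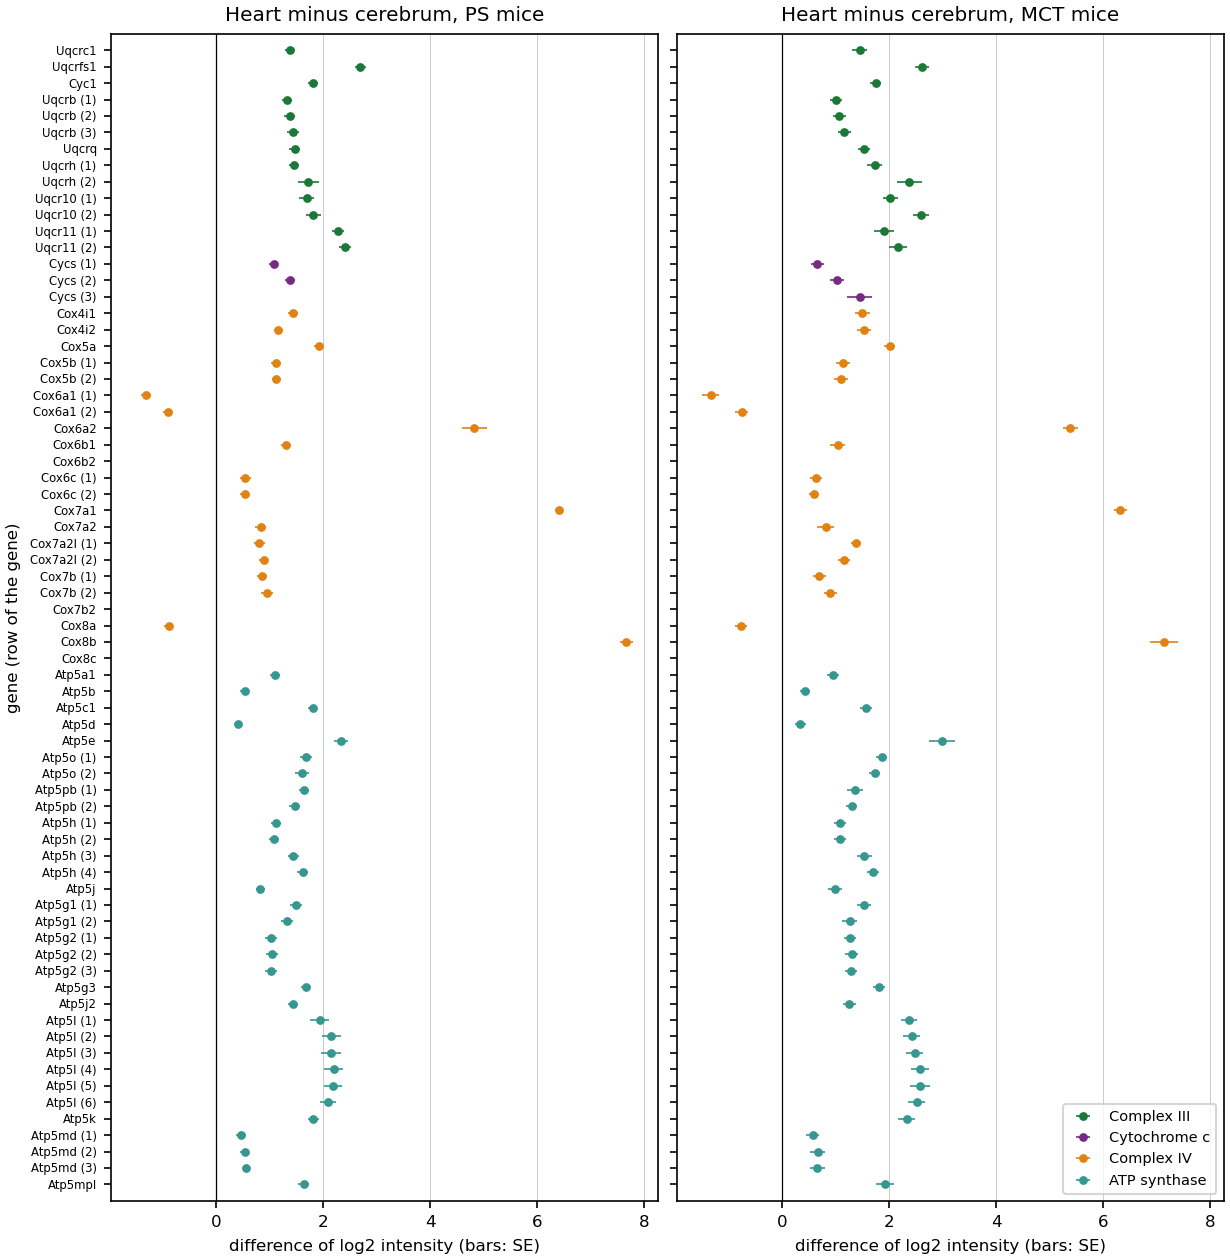
Heart minus cerebrum difference of log2 intensity (x axis) for each tested row (y axis, gene with the number of its row), in PS mice on the left and MCT mice on the right. Points are differences, bars their standard errors, and colours the complexes. Nearly all rows lie right of 0, Cox8b (with a cerebrum level below the filter value), Cox7a1 and Cox6a2 lie farthest right, and 2 rows of Cox6a1 and the row of Cox8a lie left of 0.

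The 3 muscle-type complex IV subunits had the largest tissue differences. Cox8b (GRCm38.p6 chr7:140898942-140900446), the muscle form of the small subunit VIII, was 12.05, 11.98 and 12.05 in PS hearts and 12.32, 12.28 and 12.1 in MCT hearts, against 4.48, 4.13 and 4.47 in PS cerebra and 5.2, 5.64 and 4.47 in MCT cerebra. The tissues were far apart in both treatments, and the cerebrum level was near the bottom of the scale. The deposited values differed by 7.67 in PS mice and 7.13 in MCT mice. The cerebrum means of 4.36 and 5.1 lay below the filter values, so that Cox8b passed the filter through its heart level alone, and no exact size or error is read from it.

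Cox7a1 (chr7:30184171-30186030), the muscle form of subunit VIIa, was 11.84, 11.78 and 11.9 in PS hearts and 12.09, 12.08 and 11.98 in MCT hearts, against 5.42, 5.42 and 5.44 in PS cerebra and 5.88, 5.79 and 5.52 in MCT cerebra. It was higher in heart by 6.41 ± 0.08 (SE) in PS mice and by 6.32 ± 0.12 in MCT mice (limma adjusted p = 4.66e-09 and 2.59e-09). Cox6a2 (chr7:128205435-128206366), the muscle form of subunit VIa, was 11.64, 11.5 and 11.53 in PS hearts and 11.52, 11.54 and 11.67 in MCT hearts, against 6.52, 7.33 and 6.32 in PS cerebra and 5.97, 6.42 and 6.17 in MCT cerebra. Its groups did not overlap between tissues, and cerebrum PS array 2 stood above the other 5 cerebra. The difference was 4.83 ± 0.24 in PS mice and 5.39 ± 0.14 in MCT mice (limma adjusted p = 9.3e-07 and 5.26e-09).

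The ubiquitous relatives of these genes did not move together. Cox6a1 was 8.61, 8.61 and 8.51 in PS hearts and 8.89, 8.8 and 8.45 in MCT hearts, against 9.91, 9.78 and 9.98 in PS cerebra and 10.21, 10.1 and 9.81 in MCT cerebra. Every heart lay below every cerebrum, and the difference was −1.31 ± 0.09 in PS mice and −1.33 ± 0.16 in MCT mice (limma adjusted p = 5.6e-06 and 6.66e-05). The second Cox6a1 row was lower too, by −0.9 ± 0.09 and −0.75 ± 0.12. Cox8a was 10.52, 10.59 and 10.68 in PS hearts and 10.62, 10.45 and 10.7 in MCT hearts, against 11.48, 11.44 and 11.51 in PS cerebra and 11.43, 11.34 and 11.32 in MCT cerebra. It was lower in heart in every array, by −0.88 ± 0.08 in PS mice and −0.77 ± 0.11 in MCT mice (limma adjusted p = 3.71e-05 and 0.000243).

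Cox7a2, the ubiquitous form of subunit VIIa, went the other way. It was 10.47, 10.33 and 10.55 in PS hearts and 11.03, 10.88 and 10.5 in MCT hearts, against 9.52, 9.68 and 9.62 in PS cerebra and 10.06, 10.08 and 9.81 in MCT cerebra. Within each treatment the tissues did not overlap, and Cox7a2 was higher in heart by 0.84 ± 0.1 in PS mice and 0.82 ± 0.16 in MCT mice (limma adjusted p = 9.86e-05 and 0.00137). So of the 3 pairs of muscle-type and ubiquitous genes, 2 had opposite directions between the tissues and the VIIa pair had the same direction. In the VIII pair, Cox8b passed the filter through heart alone.

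**Figure D2:**
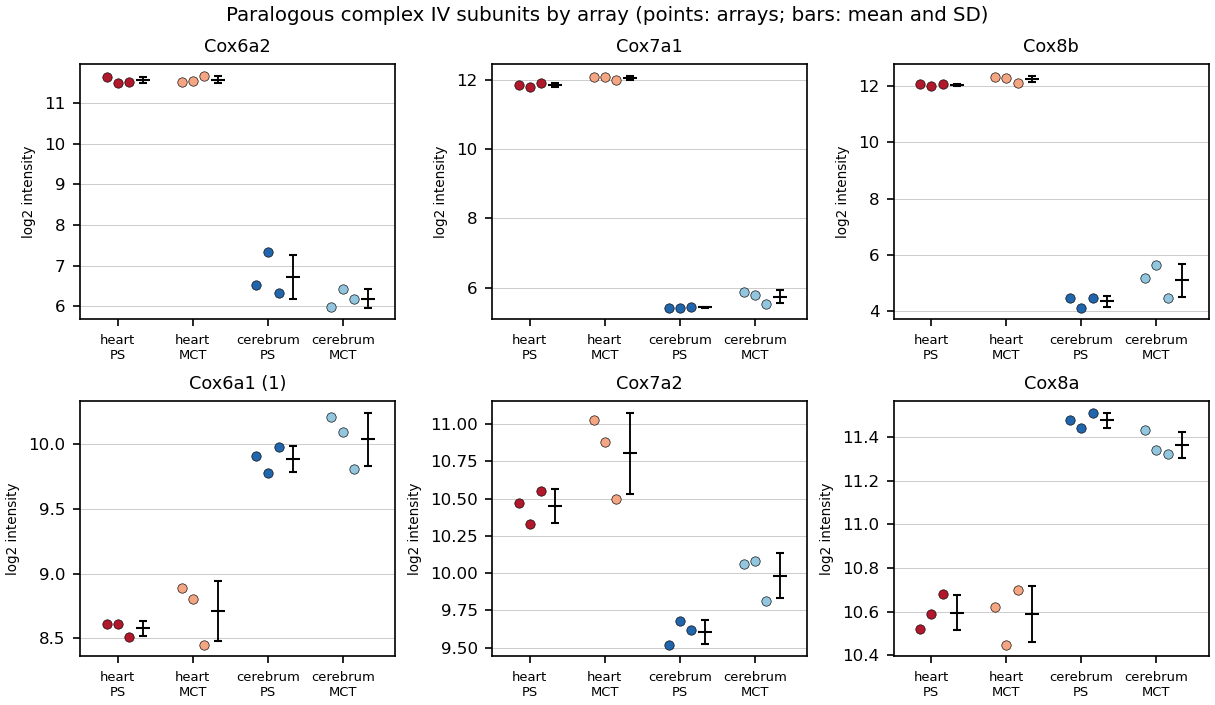
Log2 intensity (y axis) of 6 complex IV paralogues on each of the 12 arrays, with the groups on the x axis in the order PS heart, MCT heart, PS cerebrum and MCT cerebrum. Points are arrays and bars the mean and SD of 3 arrays. The top panels hold the muscle-type genes, high in both heart groups, and the bottom panels their ubiquitous relatives, of which Cox6a1 and Cox8a were lower in heart and Cox7a2 was higher. The y axes differ between panels.

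The other paralogue families of complex IV were higher in heart in every row tested. In MCT mice, Cox4i1, the common form of subunit IV, was higher by 1.5 and its hypoxia-responsive relative Cox4i2 by 1.53. Cox6b1, the ubiquitous form of subunit VIb, was higher by 1.04. The rows of Cox7b were higher by 0.7 and 0.9, and those of Cox7a2l by 1.38 and 1.16. The testis-type genes Cox6b2, Cox7b2 and Cox8c did not pass the filter in any comparison, and their values ran from 4.42 to 4.86, from 2.96 to 3.4 and from 4.18 to 4.6 over the 12 arrays.

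Complex III was higher in heart in all 13 rows in MCT mice, with a median difference of 1.75. Uqcrfs1, the Rieske iron-sulfur protein that takes the first electron from ubiquinol, was 10.08, 9.94 and 9.69 in MCT hearts, against 7.32, 7.27 and 7.29 in MCT cerebra. The tissues were clearly apart, by 2.61 ± 0.13 (limma adjusted p = 1.72e-07). Cyc1, the cytochrome c1 heme protein, was higher by 1.75, the core subunit Uqcrc1 by 1.45, and the 10 rows of the small accessory subunits by 1.01 to 2.6. Cytochrome c (Cycs), the soluble carrier between both complexes, was higher by 0.66 and 1.02 in 2 of its rows. The remaining row passed the filter through its heart level alone, with a cerebrum mean of 4.7 in MCT mice, and its size is not read.

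ATP synthase was higher in heart in all 32 rows in MCT mice, with a median of 1.45, and its parts differed in size. The 12 rows of small membrane subunits, 6 of them of Atp5l, had a median of 2.35. The 9 rows of the peripheral stalk had 1.36, the 6 rows of the c ring 1.29 and the 5 rows of the F1 head 0.95. Within the head, the catalytic subunit Atp5b differed by 0.43 ± 0.1 and the rotor subunit Atp5d by 0.34 ± 0.1 (limma adjusted p = 0.00476 and 0.0133), the smallest positive differences of the module. Both rows sat near the top of the scale in both tissues: Atp5d was 12.21, 12.27 and 12.28 in MCT hearts, against 11.95, 11.94 and 11.84 in MCT cerebra. The rotor subunit Atp5e was at the other end of the head, at 10.64, 10.4 and 9.61 in MCT hearts, against 7.33, 7.27 and 7.08 in MCT cerebra, higher by 2.99 ± 0.24 (limma adjusted p = 5.16e-06). The c-ring genes Atp5g1, Atp5g2 and Atp5g3 encode the same mature protein, and all were higher in heart, by 1.27 to 1.53 (2 rows), 1.27 to 1.3 (3 rows) and 1.81.

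Genes outside the complexes that serve them were also mostly higher in heart in MCT mice. These lists were written from textbook roles with 1 row per gene. All 4 tested genes of complex II were higher (median 2.01), as were 5 of 6 complex III assembly genes, 21 of 22 complex IV assembly genes, 3 of 4 genes of ATP synthase assembly and regulation, 5 of 6 genes of the adenine nucleotide and phosphate carriers and porins, and 10 of 16 regulators. None of these lists held a gene that was lower at the threshold. Of all rows tested, 35.2% were higher and 40.3% lower. The pattern was not particular to these lists: of 25 cytosolic ribosomal protein genes, 17 were higher and 1 was lower. Among the regulators, Tfb2m, a mitochondrial transcription factor, was higher by 1.71 ± 0.11, and the estrogen-related receptor Esrra by 1.63 ± 0.11. Perm1, a muscle regulator of mitochondrial genes, and Esrrb, both among the 10, had lower p. With cerebrum means of 4.24 and 4.08 in MCT mice they passed the filter through heart alone, and their sizes are not read. The same holds for Coa4 (5.12), among the 21 complex IV assembly genes that were higher.

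PS was then compared with MCT in cerebrum. In PS cerebra, 8 rows of 5 genes fell and 0 rose, among 65 rows of 39 genes tested. They were Uqcr11 and Uqcrb of complex III, cytochrome c (Cycs), Cox6b1 of complex IV and Atp5j2 of ATP synthase. The 8 rows make up 12.3% of the member rows, against 3.93% of all 12733 rows that fell, and 1.83% of all rows rose. The members' median difference was −0.18, against −0.03 for all rows, and 53 of the 65 rows lay below 0 (81.5%, against 54.7% of all). In tissue RNA, fewer cells of a type and less RNA per cell cannot be told apart.

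Uqcr11 (chr10:80402997-80406821), a small accessory subunit of complex III, had the largest difference. Its first row was 7.74, 7.59 and 7.9 in PS cerebra, against 8.69, 8.78 and 8.49 in MCT cerebra, and its second row was 7.43, 7.34 and 7.6, against 8.28, 8.52 and 8.22. The groups did not overlap in either row. Uqcr11 fell by 0.91 ± 0.11 (SE) and by 0.88 ± 0.11 on the log2 scale, to 0.532 and 0.542 times the MCT level (limma adjusted p = 0.0162 for both).

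Cycs (chr6:50562563-50566569) was 11.17, 11.17 and 11.18 in PS cerebra, against 11.67, 11.7 and 11.57 in MCT cerebra, in its first row. In its second row it was 10.41, 10.54 and 10.55, against 10.96, 11.03 and 10.92. The PS arrays lay close together and below all MCT arrays. Both rows fell by 0.47 (SE 0.07 and 0.08, limma adjusted p = 0.0277 and 0.0331), and the remaining, dim row was not tested in cerebrum.

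Atp5j2 (chr5:145183704-145191541), subunit f in the membrane part of ATP synthase, was 10.08, 9.97 and 10.2 in PS cerebra, against 10.55, 10.67 and 10.45 in MCT cerebra. It fell by 0.47 ± 0.1 (limma adjusted p = 0.0412), with no overlap. Cox6b1 (chr7:30616971-30626114), which faces cytochrome c on complex IV, was 9.95, 10.05 and 10.21 in PS cerebra, against 10.59, 10.65 and 10.42 in MCT cerebra. It fell by 0.48 ± 0.1 (limma adjusted p = 0.0431), again with no overlap. Uqcrb (chr13:66900576-66905350), a subunit near the ubiquinone site of complex III, was 10.71, 11.01 and 10.87 in PS cerebra, against 11.29, 11.29 and 11.27 in MCT cerebra, in its first row. That row and the second row fell by 0.42 each (limma adjusted p = 0.0464 and 0.0443), and the third row, at −0.39 ± 0.09, missed the threshold (adjusted p = 0.0534).

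**Figure D3:**
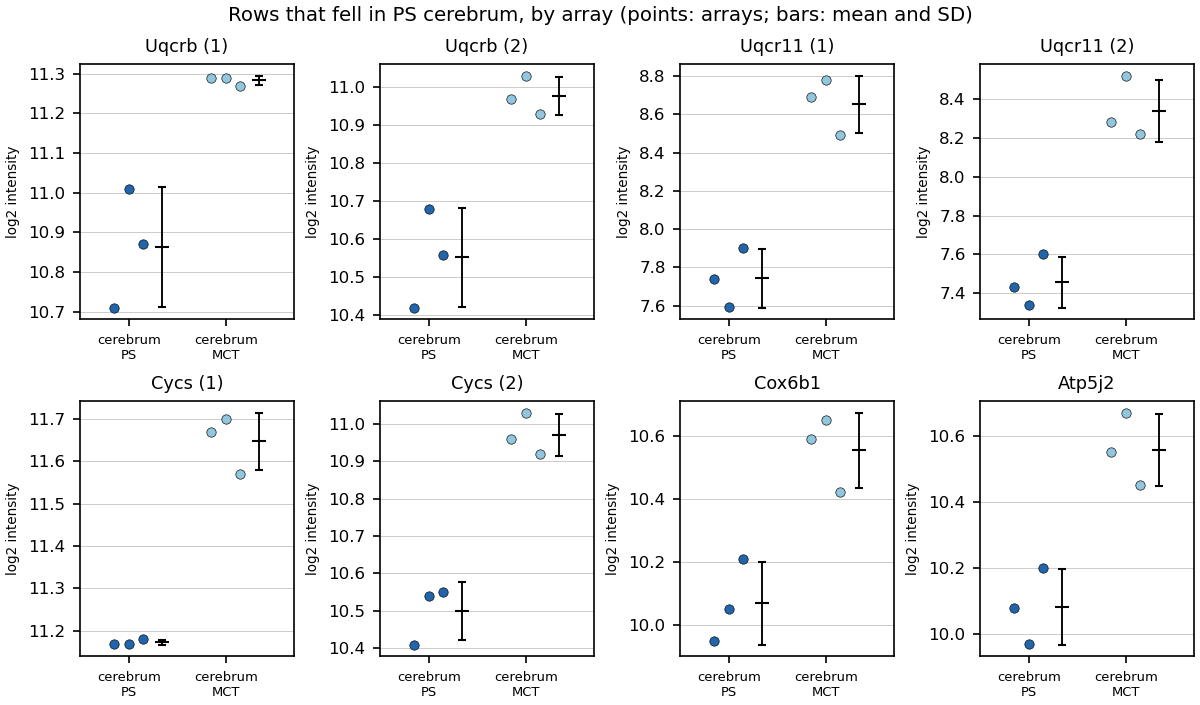
Log2 intensity (y axis) of the 8 rows that fell in PS cerebrum, with PS arrays left of MCT arrays. Points are single arrays and bars the mean and SD of 3 arrays. In every panel all PS arrays lie below all MCT arrays. The y axes differ between panels.

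The values are given next by part of the complexes. With 8 calls, and 3.93% of all rows falling, the calls are too few to set the parts apart. The 10 accessory rows of complex III, of 5 genes, had a median of −0.3. The 4 that fell were all rows of Uqcr11 and Uqcrb. The 18 complex IV rows had a median of −0.16 with 1 that fell. The 12 small membrane rows of ATP synthase, 6 of them of Atp5l, had −0.26 with 1. The 5 F1 head rows had a median of −0.03, the 9 stalk rows −0.13 and the 6 c-ring rows 0.05, with 0 calls among them. Rows above 0 did not reach the threshold: Uqcrc1, a core subunit of complex III, was 10.33, 10.31 and 10.24 in PS cerebra, against 10.19, 10.05 and 9.88 in MCT cerebra, without overlap (0.25 ± 0.1, adjusted p = 0.138). Cox6a2 was at 0.54 ± 0.25 (adjusted p = 0.207), Uqcr10 at 0.2 in 1 of its 2 rows, Cox4i2 at 0.12 and Cox8a at 0.11.

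Lower values were not confined to the members in cerebrum. Of 65 member rows, 21 were lower and 3 higher without overlap of the groups, against 20.4% and 12.4% of all rows. At an unadjusted p under 0.05, 21 of the 65 member rows were lower and 1 higher, against 17.7% and 11.3% of all rows. Single arrays also decided the calls. Without PS 1, MCT 1 or MCT 2 no member row passed, and only 0 to 2 rows of the whole table did. Without PS 2, 2 member rows fell, while 0.793% of all rows did.

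Other transcripts moved with these calls. The 11 striatal neuron markers had medians of −2.55, −2.19 and −0.75 in the PS cerebra relative to the MCT mean, against −0.08, 0.12 and −0.04 in the MCT cerebra, and all 11 lay below 0. Their summed level was 10.77 to 12.75 in PS cerebra and 13.25 to 13.37 in MCT cerebra, without overlap. The 6 oligodendrocyte markers had medians of −0.81, −0.57 and −0.49 in PS cerebra, against 0.06, 0.28 and −0.39 in MCT cerebra, with summed levels of 10.9 to 11.28 and 11.3 to 11.97. The 5 choroid plexus markers had summed levels of 6.19 to 7.34 in PS cerebra and 7.29 to 11.63 in MCT cerebra. Among them, Ttr was 6.7, 4.34 and 6.6 in PS cerebra, against 10.82, 11.54 and 5.98 in MCT cerebra, so that MCT 3 was low here too. Clic6 was 3.37, 3.22 and 4.28 in PS cerebra, against 5.67, 6.39 and 5.52 in MCT cerebra, without overlap. All 6 endothelial markers lay above 0, with a median of 0.42 and 0 past the threshold. The 6 markers of neurons in general had medians of 0.17, 0.19 and 0.16 in PS cerebra, against 0.05, −0.16 and 0.06 in MCT cerebra. Of them, 4 lay above 0 and 2 below, with 0 past the threshold. With the striatal mean as a covariate, no member row passed and the members' median was −0.04, and over all 12733 rows 1 rose and 0 fell in that fit. Striatal levels did not overlap between the groups, so this fit could not tell them apart from the treatment. The part of tissue makeup in the falls was not tested.

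Some genes that serve the complexes passed in PS cerebra, where 3.93% of all rows fell and 1.83% rose. Uqcc2, a complex III assembly factor, fell by 0.6 ± 0.13 (limma adjusted p = 0.0443), 1 of 6 genes of its list. Of the 22 complex IV assembly genes, Cmc1 fell by 0.59 ± 0.11 and Coa5 by 0.37 ± 0.08 (limma adjusted p = 0.0349 and 0.0443), with a list median of −0.09. Nrip1, a corepressor of mitochondrial gene programmes, was the 1 of 14 regulators that passed, and it rose by 0.47 ± 0.1 (limma adjusted p = 0.0424). None of the 4 complex II genes, 4 ATP synthase assembly genes and 6 carriers passed. Their medians were −0.12, −0.1 and −0.16.

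In heart, 0 of 67 member rows passed between PS and MCT (limma, lowest adjusted p = 0.118). Over all 12736 rows, 0.157% rose and 0.173% fell. The members' values lay mostly below those of MCT hearts: 61 of 67 rows were below 0 (91%, against 42% of all rows), with a median of −0.22, against 0.06 for all rows. At an unadjusted p under 0.05, 21 of the 67 member rows were lower and 0 higher, against 10.3% and 13.3% of all rows. Of the 67 rows, 33 were lower and 1 higher without overlap of the groups, against 11.2% and 17.2% of all rows. Xist separated the same groups, as given above.

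The small membrane subunits of ATP synthase had the lowest heart values as a group, with a median of −0.61 over 12 rows, none past the threshold. Atp5k, subunit e, which helps ATP synthase form dimers, was 7.73, 7.52 and 7.76 in PS hearts, against 8.6, 8.49 and 8.13 in MCT hearts. The groups did not overlap, and MCT 3 was the MCT array nearest to PS. The difference was −0.74 ± 0.15 (limma adjusted p = 0.118). Atp5mpl, a small proteolipid of the same complex, was 10.61, 10.37 and 10.5 in PS hearts, against 11.37, 11.19 and 10.75 in MCT hearts (−0.61 ± 0.17, adjusted p = 0.134). The 6 rows of Atp5l, subunit g, ran from −0.59 to −0.69 with adjusted p of 0.125 to 0.134.

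The F1 head was split. Atp5e was 9.42, 9.14 and 9.26 in PS hearts, against 10.64, 10.4 and 9.61 in MCT hearts, without overlap, and its difference of −0.94 ± 0.25 was the lowest of all members (limma adjusted p = 0.129). Atp5a1, the alpha subunit, was 12.2, 12.11 and 12.16 in PS hearts, against 11.87, 11.91 and 12.11 in MCT hearts, so that 1 PS array equalled MCT 3 (0.19 ± 0.12, adjusted p = 0.335). The catalytic beta subunit Atp5b was at 0.08 ± 0.11 and Atp5d at 0.11 ± 0.1 (adjusted p = 0.64 and 0.526). Atp5d was the 1 row that was higher without overlap, at 12.38, 12.36 and 12.35 in PS hearts, against 12.21, 12.27 and 12.28 in MCT hearts.

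Complexes III and IV showed a like spread between their parts. The core subunit Uqcrc1 was 11.69, 11.58 and 11.76 in PS hearts, against 11.37, 11.4 and 11.71 in MCT hearts (0.18 ± 0.13, adjusted p = 0.417), and the groups overlapped. The 10 accessory rows of complex III had a median of −0.45, with Uqcr11 at −0.54 and −0.64, Uqcr10 at −0.54 and −0.58 and Uqcrh at −0.36 and −0.77. Cox7a2l was 8.09, 7.96 and 8.06 in PS hearts, against 8.51, 8.51 and 8.64 in MCT hearts, in its first row. The groups were clearly apart, and MCT 3 was here the highest array (−0.52 ± 0.11, limma adjusted p = 0.119). Of the muscle-type genes, Cox6a2 was at −0.02, while Cox7a1 and Cox8b were each at −0.21, near the members' median of −0.22.

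**Figure D4:**
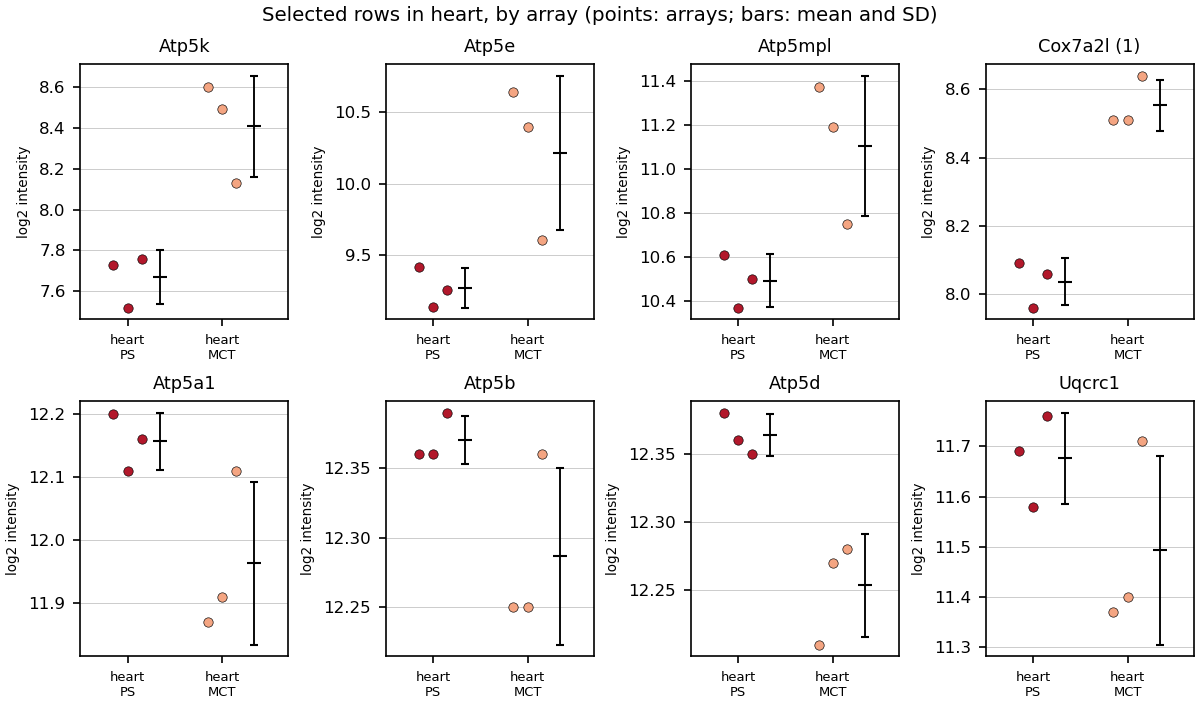
Log2 intensity (y axis) of 8 rows in heart, with PS arrays left of MCT arrays. Points are single arrays and bars the mean and SD of 3 arrays. The top panels hold 4 rows that were lower in PS hearts without overlap, and the bottom panels 4 rows whose mean was higher in PS hearts. None passed the threshold, and the y axes differ between panels.

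Heart MCT 3 decided how many rows passed. It was the lowest of the MCT hearts in 54 of 67 member rows, against 39.3% of all rows. Without it, 24 rows of 14 genes fell and 0 rose in PS hearts, while 13.6% of all rows fell. The atrial light chain Myl7 was 6.8 in PS heart 3 and 8.53 in MCT heart 3, and 4.16 to 5.08 in the other 4 hearts. Myl4, also atrial, was 9.18 in PS 3 and 9.62 in MCT 3, against 6.99 to 7.93 in the other 4. Sln, near the bottom of the scale, was 4.63 and 4.8, against 3.91 to 4.07. Nppa, the remaining atrial marker, was lower in these 2 hearts, at 10.71 in PS 3 and 10.44 in MCT 3, than in the other 4, at 11.31 to 12.31. The summed level of the 4 atrial markers, of which Nppa was the brightest, was 11.22 to 12.39 in PS hearts and 11.33 to 11.64 in MCT hearts. With PS 3 and MCT 3 both left out, 6 member rows fell, while 5.74% of all rows did. In cerebrum, MCT 3 was the lowest MCT array in 58 of 65 rows, against 38.5% of all rows.

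The plot of medians by array shows that MCT 3 lay nearer to the PS arrays in both tissues. The medians of the members were −0.13, −0.27 and −0.2 in PS hearts, against 0.09, 0.05 and −0.14 in MCT hearts. They were −0.15, −0.25 and −0.06 in PS cerebra, against 0.04, 0.08 and −0.13 in MCT cerebra, and PS 2, the PS cerebrum with a low Xist level, had the lowest median. Cytosolic ribosomal protein genes, which have no part in respiration, went along with the members. Their medians were −0.34, −0.45 and −0.33 in PS hearts, against 0.21, 0.09 and −0.27 in MCT hearts, and −0.27, −0.33 and −0.11 in PS cerebra, against 0.03, 0.12 and −0.15 in MCT cerebra. Of these genes 0 of 26 passed in heart and 3 of 25 fell in cerebrum, where 3.93% of all rows fell. The part of this common shift in the members' values was not tested.

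**Figure D5:**
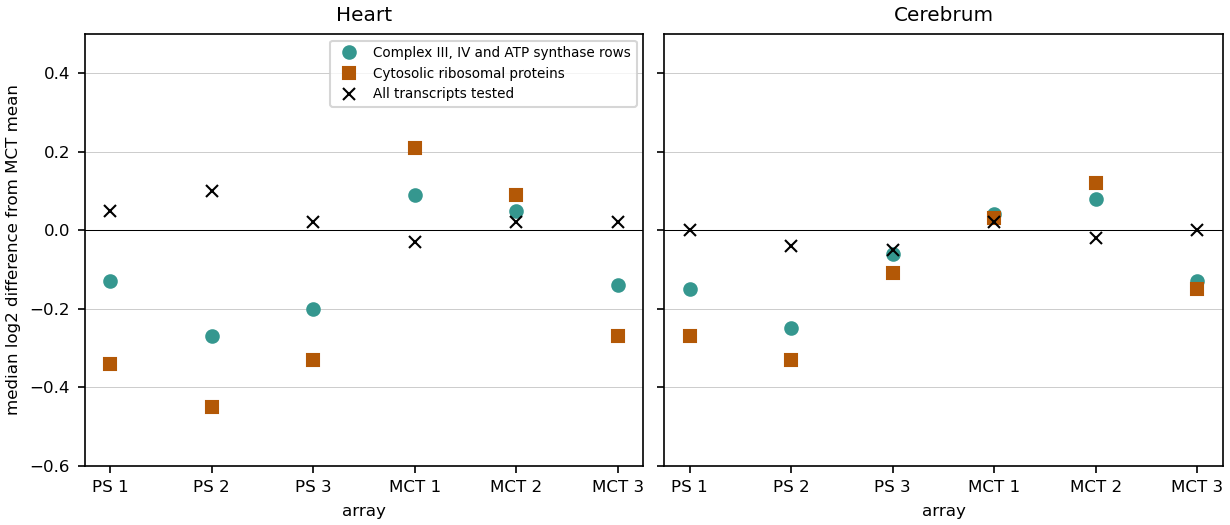
Median difference of log2 intensity from the mean of the MCT arrays (y axis) for each array (x axis), in heart on the left and cerebrum on the right. Circles are the complex III, IV and ATP synthase rows, squares the cytosolic ribosomal protein genes and crosses all rows tested. In both tissues the circles and squares of MCT 3 lie below 0, near those of the PS arrays, and the crosses stay near 0.

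Markers of other cell types that a heart sample can hold were compared between PS and MCT hearts. The 6 endothelial markers had summed levels of 11.72 to 11.94 in PS hearts and 10.96 to 11.48 in MCT hearts, and the 6 smooth muscle and pericyte markers 11.4 to 11.8 and 10.71 to 11.29. All 12 genes lay above 0 and none passed the threshold. The 7 ventricular cardiomyocyte markers had summed levels of 14.95 to 15.02 in PS hearts and 14.87 to 15.02 in MCT hearts. The part of cell makeup in the heart values was not tested.

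In heart, 0 genes of the accessory lists passed. Among complex IV assembly genes, Cox19, a copper-handling factor, was 8.15, 8.27 and 8.15 in PS hearts, against 9.28, 9.08 and 8.78 in MCT hearts, without overlap (−0.86 ± 0.15, limma adjusted p = 0.0806). Coa3 was at −0.91 ± 0.22, Cox14 at −0.74 ± 0.17 and the ATP synthase assembly factor Tmem70 at −0.68 ± 0.17 (adjusted p = 0.122, 0.119 and 0.123). Of 16 regulators, 12 lay above 0, with Ppargc1a, a coactivator of mitochondrial genes, at 0.61 ± 0.19 (adjusted p = 0.137). Its partner Esrra was 7.71, 7.47 and 7.72 in PS hearts, against 8.31, 8.15 and 8.04 in MCT hearts (−0.53 ± 0.13, adjusted p = 0.123).

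The PS effect was tested for a difference between the tissues over all 12 arrays. Of 66 member rows, 0 passed, against 1.1% of all 12731 rows with a more positive and 0.424% with a more negative effect in heart. At an unadjusted p under 0.05, 2 of the 66 member rows were more positive and 4 more negative in heart, against 13% and 6.25% of all rows. The lowest p was that of Cox7a2l, whose first row differed by −0.57 ± 0.14 (limma adjusted p = 0.0638), with an effect of −0.52 in heart and 0.05 in cerebrum. The second row of Uqcr10 differed by −0.78 (adjusted p = 0.0837), with −0.58 in heart and 0.2 in cerebrum. The first Cycs row differed by 0.42 (adjusted p = 0.118), with −0.06 in heart and −0.47 in cerebrum. The falls of Cycs and Uqcr11 in cerebrum were therefore not shown to differ from heart. Of the 22 complex IV assembly genes, 2 differed, Cox19 by −0.9 ± 0.17 and Cmc2 by −0.71 ± 0.16 (limma adjusted p = 0.0277 and 0.0487). Cmc2 was 9.72, 9.54 and 9.7 in PS hearts, against 9.9, 9.91 and 9.83 in MCT hearts, and 8.33, 8.67 and 8.26 in PS cerebra, against 7.93, 7.91 and 7.98 in MCT cerebra.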

How the data were processed

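Heart and cerebrum RNA was column-purified and hybridised as biotin-labelled target, per the labels' protocols. The authors deposited 1 log2 intensity per transcript cluster and array, from Expression Console (Affymetrix) per the submitters' processing notes, with its version, background step, summary method and build not given in the sources used here. That the scale is log2 was inferred from the range of 1.9 to 13.11. No further normalization was applied, and arrays scaled to like medians cannot show a shift of all transcripts. The 12 arrays limit the precision.

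Groups came from the labels. Rows with 1 symbol in the supplied probe annotation were tested if their mean over the arrays of a fit reached the 40th percentile. The fits used lmFit and eBayes of limma 3.58.1 under R 4.3.3, and p-values were adjusted by Benjamini-Hochberg over all rows at a threshold of 0.05. The scripts were tested on simulated data. Members and lists were chosen with earlier results of these data known, so no list was tested as a set. Named were members past the threshold, the 5 with the lowest p in each direction per treatment comparison, the 8 with the largest tissue difference in each direction, paralogue families and up to 4 genes per list. Other members and markers were named after their values were seen, as examples of their part of a complex or of a tissue. Alternatives covered filters, scalings, variance models, rows tested, blocks, a striatal covariate and arrays left out. Leaving out cerebrum MCT 3 and PS 3 together was added after seeing the data.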

Additional observations from a re-analysis of the deposited data

How the results depend on the processing

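The tissue difference kept its direction and size: leaving out 1 array at a time gave 63 to 64 higher and 3 lower rows in each treatment, with medians of 1.34 to 1.43 in MCT mice and 1.39 to 1.47 in PS mice, and quantile normalization moved the PS median to 1.31. In cerebrum, 8 member rows fell under PS in the reported fit, where 3.93% of all rows fell. They became 5 without a filter on low values (1.76% of all rows). With rows of several or no symbols also tested they became 3 (0.618% of all rows), and with array weights 22 (and 1 that rose). With array weights, 16.6% of all rows fell, and that fit did not fully converge. With the replicate block 0 rows passed, in the whole table too. The replicate numbers were not taken to pair the samples, since in no comparison were all 3 same-number correlations above 0.1. Deviations of same-numbered arrays correlated at −0.259 to 0.101 in cerebrum, −0.005 to 0.147 in heart, 0.099 to 0.285 between tissues under MCT and 0.053 to 0.119 under PS, and 2, 4, 4 and 6 of 6 arrays in these comparisons correlated best with their own number. Between tissues the same-number correlations were all positive. That of PS heart 2 and PS cerebrum 2 was 0.101, although by Xist and Eif2s3y these arrays did not match as samples of 1 mouse. The correlations therefore cannot show that a shared number is a shared mouse, and what they reflect was not tested. Between tissues, the replicate block left the counts at 64 higher and 3 lower in MCT mice and 63 and 3 in PS mice. With the striatal mean as a covariate 0 member rows passed (median −0.04), and 1 row of the whole table. Without cerebrum PS 3 and MCT 3 together, a setting chosen after seeing the data, 13 fell (median −0.3, while 8.09% of all rows fell), of which 6 were among the 8. Leaving out 1 array gave 0 to 9 falls and medians of −0.24 to −0.12. The 9 came without MCT 3, where 3.28% of all rows fell.

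In heart, where 0 rows passed, array weights gave 39 falls and 2 rises (25.7% of all rows fell), 1 fit over all 4 groups 15 falls (6.16%), and leaving out PS 3 and MCT 3 together 6 (5.74%). Leaving out 1 array gave 0 to 24 falls, 24 without MCT 3 (13.6% of all rows), with medians of −0.27 to −0.16. When the PS effects of both tissues were compared, a filter at the 60th percentile gave 1 more negative member row (0.507% of all rows). The intensity trend gave 1 more positive row (1.36% of all rows). Leaving out 1 array gave 0 to 5 more negative rows, with medians of −0.13 to 0. The 5 came without heart MCT 3, where 5.16% of all rows were more negative. Cox6a2 in cerebrum was 0.54 in the reported fit and −0.07 with the striatal covariate. Atp5g1 in heart was 0.02 in the reported fit, −0.02 without PS 3 and MCT 3 together, and −0.02 to 0.08 with 1 array left out (−0.02 without PS 1, −0.01 without PS 3). Over 17 settings in cerebrum, Uqcr11 passed in 12 in both rows, Cycs in 11 and 10, Atp5j2 in 10, Cox6b1 in 9 and Uqcrb in 5 in both called rows. The causes of these changes were not tested. Small changes of dim rows and of rows near the top of the scale are the least reliable.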

Other observations

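Cox6a2 did not rest at its lowest level in cerebrum, where PS array 2 had 7.33 and the other 5 cerebra 5.97 to 6.52. Pvalb, the calcium-binding protein of fast-spiking interneurons and fast muscle, was 8.83, 9.12 and 7.99 in PS cerebra, against 8.37, 8.6 and 8.07 in MCT cerebra, and was also highest in PS array 2. Both values were picked after they were seen, and no relation between them was tested. Of the 7 skeletal muscle markers, Pvalb was the 1 above 5 in cerebrum, where Myh1 was 3.43 to 3.65, Actn3 4.22 to 4.5 and Tnni2 4.43 to 4.86. In heart Tnni2 reached 5.46 and Tnnt3 5.44. Cox8b in cerebrum was 5.2 and 5.64 in MCT arrays 1 and 2, against 4.13 to 4.48 in the 3 PS arrays and 4.47 in MCT array 3. It was not tested there, since its mean lay below the filter value.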
